A study of Mus musculus with 8 samples.

Results

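The interaction of genotype and running was described in mouse cerebellum for 6969 loci of the 11763 that the authors' tables list. The 4 groups were Snf2h cKO-Nestin runners, Snf2h cKO-Nestin sedentary mice, control runners and control sedentary mice. Each group held 2 libraries, each labelled as made from 3 pooled cerebella of C57Bl/6 mice at postnatal day 40, with the label male. Snf2h, the protein of Smarca5, is the ATPase that drives the ISWI family of chromatin remodelling complexes, which slide and space nucleosomes. A Nestin driver acts in neural progenitors, so neurons and macroglia of the whole nervous system descend from cells in which it was active, while microglia, vessels and blood do not. The labels do not say which alleles the controls carry or how the mice ran. Gabra6 of granule neurons and Pcp2 of Purkinje cells, which mark cerebellar cortex, were expressed in all 4 groups, with lowest values of 74.4 and 262 FPKM. A locus was a member when it had a value above 0 in all 4 groups and at least 1 FPKM (fragments scaled to transcript length and to library size) in one of them. For each member the running response, log2(runner / sedentary), was taken in cKO and in control mice, and the response in controls was subtracted from the response in cKO. The result is called the difference below, and a positive value means that running moved the locus further upward, or less far downward, in cKO than in controls.

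Running raises the firing of cerebellar circuits and, in rodents, is known to induce activity-dependent genes, neurotrophic factors and secreted peptides such as Vgf. The cerebellar cortex is built from granule neurons, which supply excitatory parallel fibres, from Purkinje cells, which are the inhibitory output of the cortex, and from inhibitory interneurons and glia. The choroid plexus of the fourth ventricle and the brainstem lie against the cerebellum at dissection.

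The authors' tables hold 1 FPKM value per group, so the spread between the 2 libraries of a group cannot be shown, and every FPKM below is the authors' group value. The error of a difference was built from the authors' own test statistics, and loci were called at a Benjamini-Hochberg adjusted p below 0.05 in a two-sided z test run over all 7294 loci above 0 in the 4 groups. The tables list loci that the authors' test selected, so 6431 members are in the set because both genotype tables list them and 538 because both running tables do. For those 538, running calls are largely fixed by membership, and listed responses of opposite sign largely fix a called difference. Among the 6969 members, 6313 reached 1 FPKM in all 4 groups and 108 reached it in 1 group only. Just inside that limit, Rab11fip1 had a highest value of 1.01 FPKM and a difference of -0.61, and just outside it a locus without a symbol had 0.9998 FPKM and a difference of -0.13.

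Smarca5 (chromosome 8, 80698507 to 80739497, minus strand, GRCm38) checked the genotype labels, with 5.38 FPKM in cKO runners and 4.94 FPKM in cKO sedentary mice, against 12.96 FPKM in control runners and 12.6 FPKM in control sedentary mice. Both cKO groups lay below both control groups. Its difference was 0.08 ± 0.20 (SE, log2) and was not called (adjusted p of 0.85).

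Sex-linked genes did not bear out the label male in every group. Eif2s3y, a gene of the Y chromosome, had 5.56 FPKM in cKO runners and 10.4 FPKM in cKO sedentary mice, against 0.0334 FPKM in control runners and 7.43 FPKM in control sedentary mice. Xist, the RNA that silences one X chromosome in females, had 25.8 FPKM in cKO runners and 18.1 FPKM in cKO sedentary mice, against 57.6 FPKM in control runners and 34.8 FPKM in control sedentary mice. Control runners were thus lowest in the Y gene and highest in Xist, and Xist was detected in every group. The further Y genes Kdm5d and Uty had 1.36 and 1.53 FPKM in cKO runners, 2.50 and 2.88 FPKM in cKO sedentary mice and 3.13 and 4.27 FPKM in control sedentary mice, and have no value for control runners in the tables used here. The difference for Eif2s3y, 6.89 ± 3.06 (SE, log2), was the highest of all members and was not called (adjusted p of 0.075). The cKO runners also lay below cKO sedentary mice in each of these Y genes and above them in Xist. Ddx3y, also of the Y chromosome, had 5.90 FPKM in cKO runners and 13.1 FPKM in cKO sedentary mice, without values in controls. Sex and running therefore cannot be told apart in the control groups, nor fully in the cKO groups. Because a group has a single value, no result could be given without these libraries. Eif2s3x, Xist and Kdm5c of the X chromosome were called lower, with differences of -0.35, -0.21 and -0.22.

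Across the 6969 members the difference had a median of 0.03 and an SD over loci of 0.42, and 9 in 10 lay between -0.64 and 0.56. Running moved 1055 loci further upward in cKO than in controls (15.1% of members) and 1189 further downward (17.1%). These shares are the reference for every count of called list members below. Most of these differences were small, as 1686 of the 2244 called loci differed by less than 1.5-fold. A difference of 2-fold or more in the positive direction was seen in 88 loci (1.26%), of which 62 were called, and in the negative direction in 84 loci (1.21%), of which 66 were called. Precision followed expression. The median SE was 0.43 at a mean level under 2 FPKM, where 7.79% of 757 loci were called, and 0.04 at 100 FPKM or more, where 75.1% of 466 were called.

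The running responses of the genotypes were nearly unrelated across loci. Over the 6969 members Pearson's r was 0.09 and Spearman's rho 0.02, which are descriptions over genes and not over replicates, and the responses had the same sign in 50.5% of members. The responses had an SD of 0.28 in cKO and 0.33 in controls, beside a median SE of 0.16 for a difference, and such error lowers a correlation. The responses also varied oppositely with transcript length, with Spearman's rho of 0.43 in controls and -0.17 in cKO. The part of each in the low correlation was not tested. Among the loci called higher, 805 of 1055 had a positive response in cKO and a negative one in controls, and among those called lower, 877 of 1189 had the reverse. Such opposite signs are in part fixed by selecting loci on their difference.

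**Figure D1:**
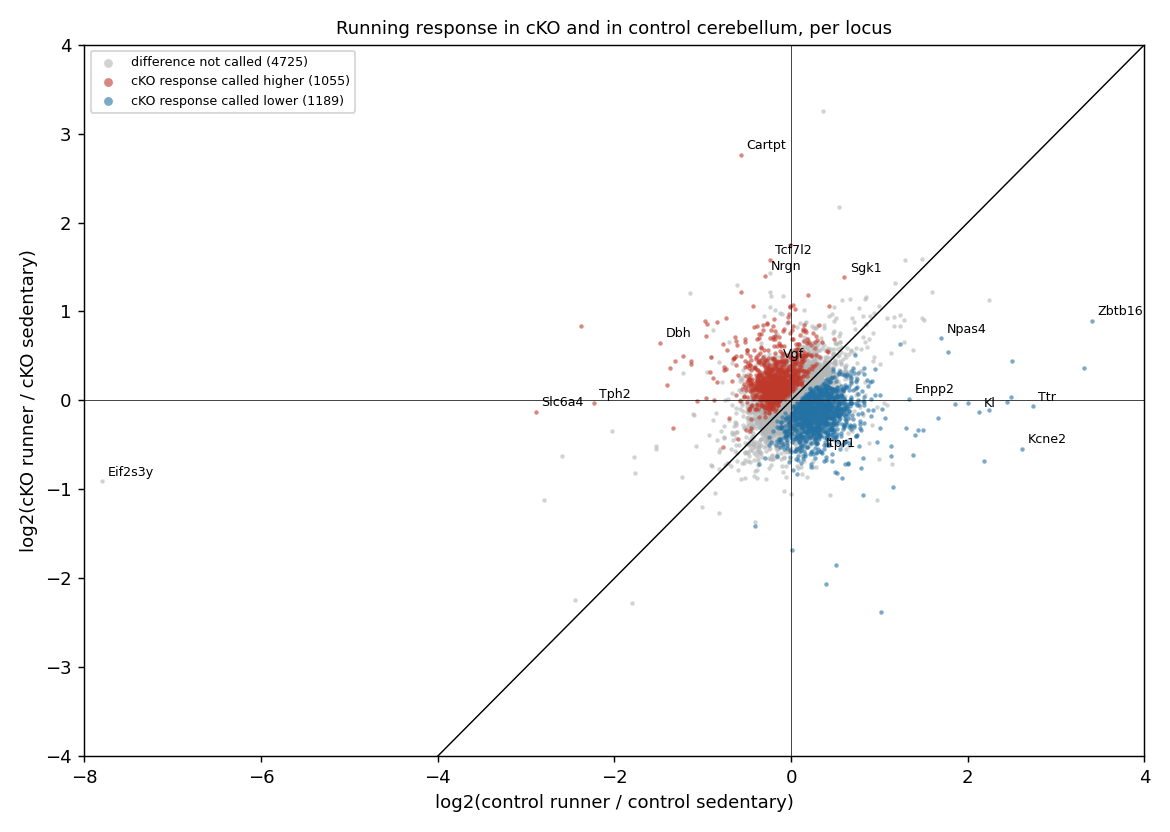
Running response of each of 6969 loci, log2(control runner / control sedentary) on the x axis and log2(cKO runner / cKO sedentary) on the y axis, with the diagonal marking equal responses. Red loci (1055) were called higher in cKO than in controls, blue loci (1189) lower and grey loci not called. The genes named by size with the largest negative differences lie to the right, at cKO responses from -0.68 (Aqp1) to 0.90 (Zbtb16). The joint locus of Hbb-b1 and Hbb-b2 lies low instead, at a cKO response of -1.85. The largest positive differences lie far to the left or high up.

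The group that stood farthest from the others differed between the extremes. Among the 88 loci with a positive difference of at least 2-fold, control runners were the group farthest from the mean of the other 3, and below it, in 30, cKO sedentary mice were below in 27, cKO runners were above in 18 and control sedentary mice were above in 13. Among the 84 loci with a negative difference of that size, control sedentary mice were below in 57, cKO sedentary mice were above in 18, control runners were above in 5 and cKO runners were below in 4. Called genes with 1 symbol were also ranked by size, leaving out predicted genes and small RNAs. Of the 15 called genes with the largest negative difference in that ranking, all 15 were set apart by a low value in control sedentary mice. The ranking leaves out the joint locus of Hbb-b1 and Hbb-b2 (-2.35), which stood high in cKO sedentary mice (36.2 FPKM). Of the 15 called genes with the largest positive difference, 9 were set apart by a low value in control runners.

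Genes of the choroid plexus, the epithelium that makes cerebrospinal fluid, lay at the negative end. All 15 members of the choroid plexus list were called lower, against 17.1% of all members, with a median difference of -2.06 against 0.03 over all members. Ttr, the carrier of thyroid hormone in cerebrospinal fluid, had 610 FPKM in cKO runners and 640 FPKM in cKO sedentary mice, against 518 FPKM in control runners and 77.7 FPKM in control sedentary mice. The cKO groups and control runners were alike and control sedentary mice were low. Its difference was -2.80 ± 0.08 (SE). Kl, the membrane protein klotho, had 11.7 FPKM in cKO runners and 12.8 FPKM in cKO sedentary mice, against 8.01 FPKM in control runners and 1.84 FPKM in control sedentary mice, a difference of -2.25 ± 0.20 (SE). Kcne2, a potassium channel subunit (chromosome 16, 92292389 to 92298129, plus strand), had 3.99 FPKM in cKO runners and 5.82 FPKM in cKO sedentary mice, against 4.30 FPKM in control runners and 0.702 FPKM in control sedentary mice. Its difference of -3.16 ± 0.37 (SE) was the most negative of the genes named by size.

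Of the 15 genes with the largest negative difference, 10 are on the choroid plexus list. Besides those above they include Tmem72 (-2.94), the water channel Aqp1 (-2.87), the coagulation factor F5 (-2.36), the prolactin receptor Prlr (-2.45), the tight junction claudins Cldn1 (-2.06) and Cldn2 (-1.89) and the bicarbonate transporter Slc4a5 (-2.04). Enpp2, which makes lysophosphatidic acid and is also expressed by oligodendrocytes, had 382 FPKM in cKO runners and 377 FPKM in cKO sedentary mice, against 326 FPKM in control runners and 129 FPKM in control sedentary mice. Summed over the 15 members, the list stood at 1113 FPKM in cKO runners and 1152 FPKM in cKO sedentary mice, against 943 FPKM in control runners and 255 FPKM in control sedentary mice. In these bulk libraries fewer cells of a type and less RNA per cell cannot be told apart, and the part of choroid plexus tissue taken with each pool was not tested. Zbtb16, a zinc finger factor induced by glucocorticoids, is on the glucocorticoid list and not on the choroid plexus list, and had 6.60 FPKM in cKO runners and 3.55 FPKM in cKO sedentary mice, against 6.33 FPKM in control runners and 0.597 FPKM in control sedentary mice. It was higher in runners of both genotypes, and its difference was -2.51 ± 0.25 (SE).

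**Figure D2:**
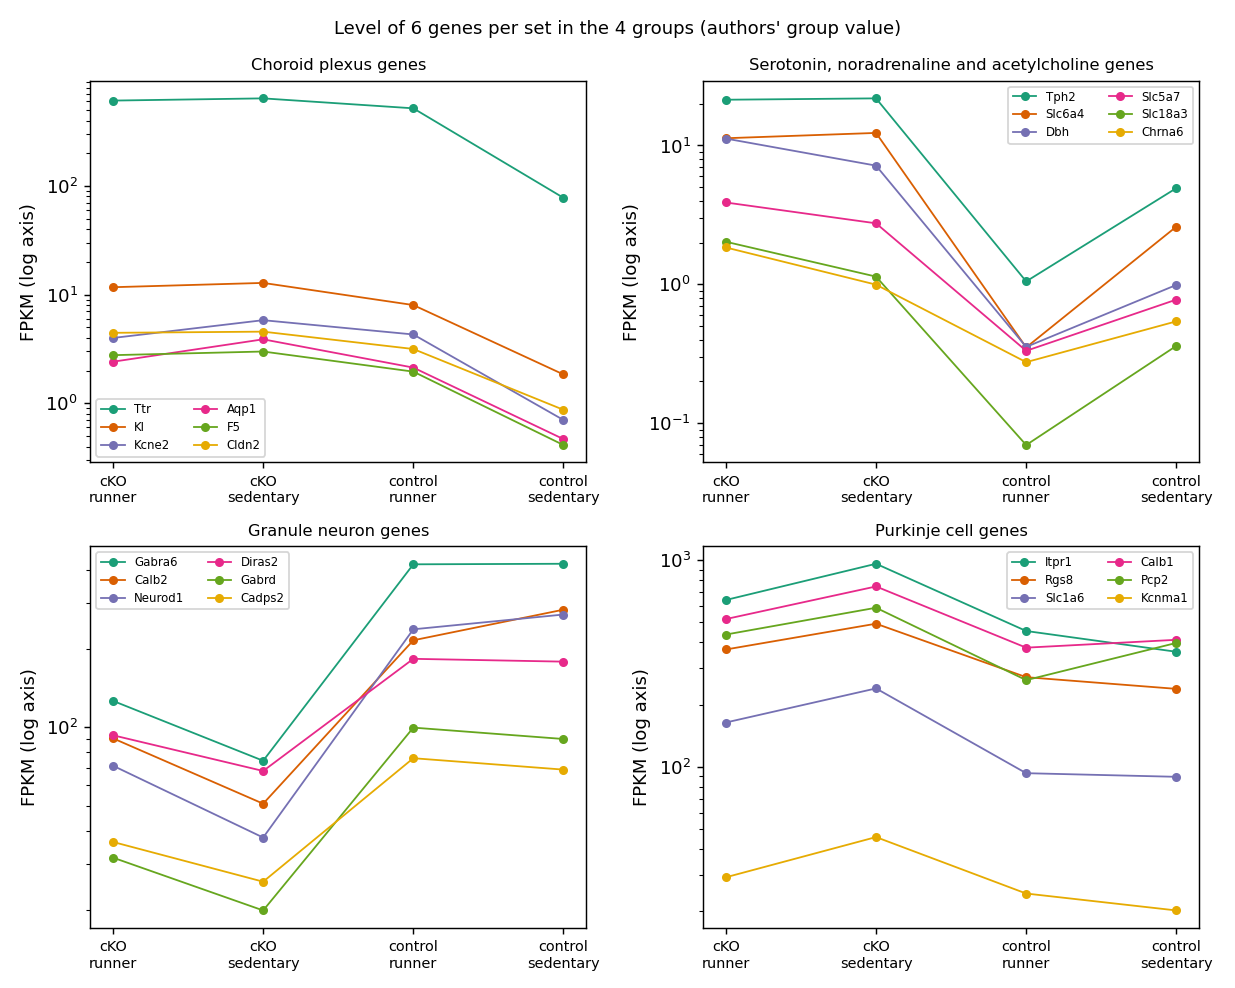
FPKM on a log axis in the 4 groups, from cKO runners at the left to control sedentary mice at the right, for 6 genes in each of 4 sets, with 1 authors' value per group and lines only joining the values of a gene. Choroid plexus genes are low in control sedentary mice, monoamine and acetylcholine genes are low in control runners, granule neuron genes are lowest in cKO sedentary mice and Purkinje cell genes are highest there.

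Genes of brainstem neurons that make serotonin, noradrenaline and acetylcholine lay at the positive end, with 7 of the 15 genes with the largest positive difference on the hindbrain and midbrain neuron list. Of the 24 loci on that list, 13 were called higher, against 15.1% of all members, and 0 lower, with a median difference of 1.09. Slc6a4, the serotonin transporter (chromosome 11, 76998603 to 77032340, plus strand), had 11.3 FPKM in cKO runners and 12.3 FPKM in cKO sedentary mice, against 0.352 FPKM in control runners and 2.60 FPKM in control sedentary mice. The cKO groups were alike and control runners were lowest. Its difference was 2.76 ± 0.41 (SE). Tph2, the rate-limiting enzyme of serotonin synthesis in neurons, had 21.3 FPKM in cKO runners and 21.8 FPKM in cKO sedentary mice, against 1.05 FPKM in control runners and 4.93 FPKM in control sedentary mice, a difference of 2.20 ± 0.29 (SE). Dbh, which makes noradrenaline, had 11.2 FPKM in cKO runners and 7.16 FPKM in cKO sedentary mice, against 0.355 FPKM in control runners and 0.991 FPKM in control sedentary mice, a difference of 2.13 ± 0.45 (SE).

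The cholinergic genes moved the same way. Slc5a7, the choline transporter, Chat, which makes acetylcholine, and Slc18a3, its vesicular transporter, had differences of 1.72, 1.58 and 3.21 and were called. Slc18a3 stood at 0.0697 FPKM in control runners, and its SE of 1.02 was wide. Of the 13 called loci, all 13 had a negative running response in controls, and 11 of them had a positive one in cKO. Slc17a6, among them, is a member only because both running comparisons list it, with responses of opposite sign. The list summed to 308 FPKM in cKO runners and 253 FPKM in cKO sedentary mice, against 86.9 FPKM in control runners and 108 FPKM in control sedentary mice. The noradrenaline transporter Slc6a2 was not called (0.61 ± 0.50, adjusted p of 0.43), nor was the glycine transporter Slc6a5 (-0.40 ± 0.20, adjusted p of 0.13). The part of brainstem tissue taken with each pool was not tested.

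Genes of the regulated secretory pathway, in which propeptides are packed into dense granules, cut by proconvertases and released on activity, were mostly on the positive side. Of 20 members of the neuropeptide and secretory granule list, 13 were called higher, 1 lower and 6 neither, with a median difference of 0.44. In 10 of the 13 the running response was positive in cKO and negative in controls, and in 3 it was positive in both. Some, such as Scg2, Chga and Vip, are members only because both running comparisons list them. For those, listed responses of opposite sign largely fix a called difference in advance, so the count is not independent of membership. The members Cartpt and Calca are also on the hindbrain list, and without them 11 of 18 were called higher and the median was 0.38. Vgf, a secreted growth factor precursor (chromosome 5, 137026392 to 137033351, plus strand), had 33.2 FPKM in cKO runners and 24.8 FPKM in cKO sedentary mice, against 10.7 FPKM in control runners and 11.97 FPKM in control sedentary mice. The cKO groups lay above the control groups and cKO runners were highest. Its running response was 0.42 in cKO and -0.16 in controls, and the difference of 0.58 ± 0.19 (SE, log2) was called with an adjusted p of 0.0087 in the z test.

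Cartpt, the precursor of the peptides CART, had the largest positive difference of the called genes named by size. It had 10.2 FPKM in cKO runners and 1.49 FPKM in cKO sedentary mice, against 0.554 FPKM in control runners and 0.824 FPKM in control sedentary mice, so that cKO runners alone stood high. The difference was 3.34 ± 0.79 (SE) with an adjusted p of 0.00016. Sst, the precursor of somatostatin, had 34.2 FPKM in cKO runners and 18.0 FPKM in cKO sedentary mice, against 20.7 FPKM in control runners and 34.4 FPKM in control sedentary mice. Running was thus accompanied by a higher level in cKO and a lower level in controls, and the difference was 1.66 ± 0.27 (SE). Neuropeptide Y (Npy, 1.29), tachykinin (Tac1, 1.13) and vasoactive intestinal peptide (Vip, 1.69) followed the same pattern. The granins Scg2 and Chga had smaller differences of 0.67 and 0.39. Chgb had a running response of 0.53 in cKO and 0.49 in controls, and its difference of 0.04 ± 0.06 (SE) was not called.

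The processing enzymes divided. Pcsk2, Cpe and the convertase inhibitor precursor Pcsk1n were called higher, with differences of 0.28, 0.13 and 0.50. Pcsk1, the other convertase, had 20.9 FPKM in cKO runners and 26.7 FPKM in cKO sedentary mice, against 10.1 FPKM in control runners and 8.34 FPKM in control sedentary mice. It was the only list member called lower, at -0.63 ± 0.20 (SE).

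The promoters of several peptide genes hold the cAMP response element, the sequence bound by CREB, the factor that links neuronal activity to transcription. The bases just before the transcription start are shown for 4 members that hold it there, 3 called higher and 1 lower, with the 8-base element TGACGTCA in capitals. They are from RefSeq (GRCm38.p6) and read 5′ to 3′ on the gene's strand, at chr13:99900684-99900808 for Cartpt (minus), chr16:23890845-23890969 for Sst (minus), chr1:79440027-79440151 for Scg2 (minus) and chr13:75089732-75089856 for Pcsk1 (plus).
Cartpt: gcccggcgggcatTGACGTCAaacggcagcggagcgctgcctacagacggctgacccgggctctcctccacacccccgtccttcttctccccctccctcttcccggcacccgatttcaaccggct
Sst: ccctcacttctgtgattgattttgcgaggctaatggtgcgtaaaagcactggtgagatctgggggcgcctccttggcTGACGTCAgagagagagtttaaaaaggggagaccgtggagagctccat
Scg2: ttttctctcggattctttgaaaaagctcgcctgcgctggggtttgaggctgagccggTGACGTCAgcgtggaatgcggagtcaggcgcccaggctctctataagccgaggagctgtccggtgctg
Pcsk1: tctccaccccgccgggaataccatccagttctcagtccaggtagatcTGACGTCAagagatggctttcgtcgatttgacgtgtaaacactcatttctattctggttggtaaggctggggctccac

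The element begins 112 bases before the start in Cartpt, 48 in Sst, 68 in Scg2 and 78 in Pcsk1. It reads the same on both strands, and TGACGTCA was searched in windows from 250 bases before to 50 bases after each start. It was found in 42 of 749 promoters of loci called higher (5.61%), in 26 of 871 of loci called lower (2.99%), in 196 of 5053 of all members matched by symbol (3.88%) and in 588 of 32851 promoters in the table (1.79%). Of the 17 members of the peptide list with a promoter in the table, 5 held it, namely the 4 shown and Chgb, which was not called. These shares describe letters in a window and were not tested.

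**Figure D3:**
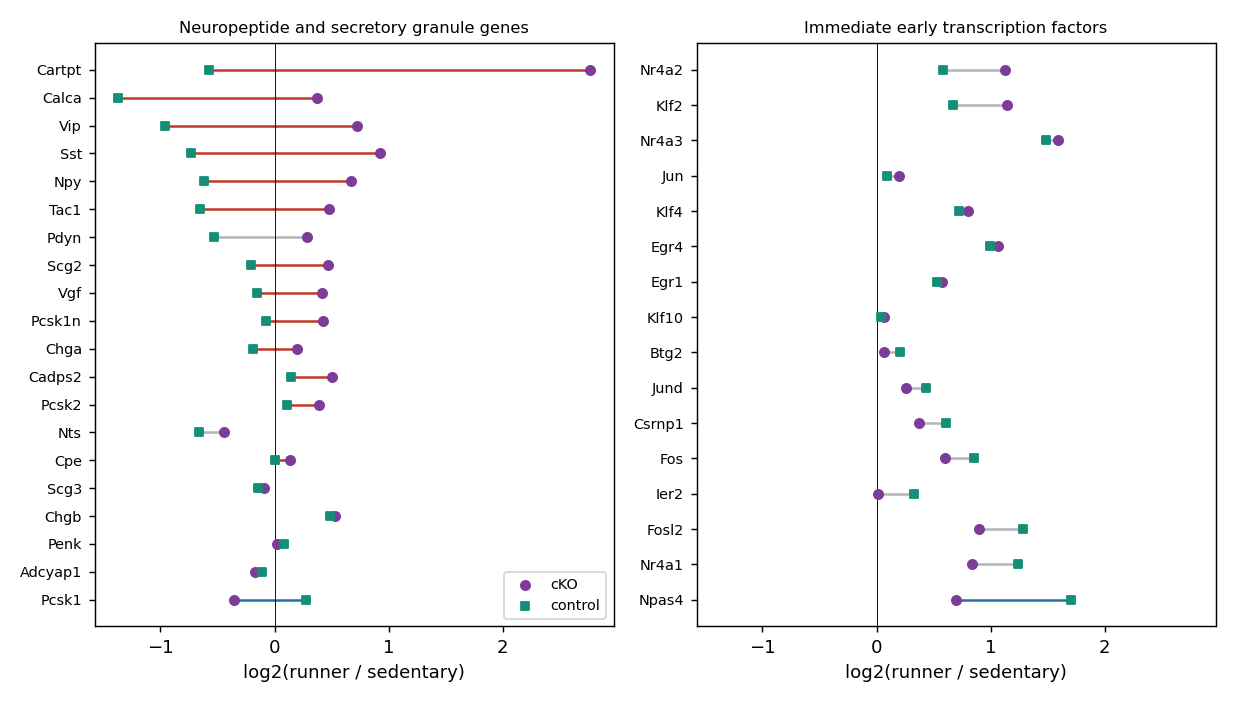
Running response, log2(runner / sedentary), of each member of the neuropeptide and secretory granule list (left, 20 loci) and of the immediate early transcription factor list (right, 16 loci), with circles for cKO and squares for controls. Joining lines are red where the difference was called higher, blue where lower and grey where not called; peptide genes spread to both sides of 0, whereas all 16 early genes lie above 0 in both genotypes.

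Immediate early genes, the transcription factors that neurons switch on within minutes of firing, responded to running alike in direction in both genotypes. All 16 members had a positive running response in cKO and in controls, with a median of 0.65 in cKO and 0.64 in controls. In the authors' deposited tables, 13 of 16 were called higher in runners in cKO and 13 of 16 in controls. Over all members the shares were 25.1% in cKO and 27.0% in controls. Some, such as Npas4, Nr4a1, Nr4a2 and Klf2, are members only because both running comparisons list them. For those, running calls in both genotypes are largely fixed by membership, so the counts are not independent of it. Only Npas4, an early gene induced by neuronal activity, had a called difference, -1.004 ± 0.40 (SE). It had 1.81 FPKM in cKO runners and 1.12 FPKM in cKO sedentary mice, against 2.31 FPKM in control runners and 0.709 FPKM in control sedentary mice. Fos had 18.7 FPKM in cKO runners and 12.4 FPKM in cKO sedentary mice, against 26.2 FPKM in control runners and 14.4 FPKM in control sedentary mice. Its difference of -0.26 ± 0.20 (SE) had a 95% interval of -0.66 to 0.14. A response smaller, equal or slightly larger in cKO is thus within the error. Egr1 and Nr4a3 had differences of 0.05 ± 0.17 and 0.11 ± 0.37 (SE).

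Activity effectors, which act downstream of the early factors, were less uniform. Of 19 members 5 were called higher (26.3%) and 3 lower (15.8%), against 15.1% and 17.1% of all members, with a median difference of 0.14. Nrn1, which stabilises synapses, and Rgs2, which shortens G protein signals, were called higher at 0.67 and 0.74. Nptx1, a pentraxin that gathers AMPA receptors, was called lower at -0.52, with 110 FPKM in cKO runners and 112 FPKM in cKO sedentary mice, against 179 FPKM in control runners and 127 FPKM in control sedentary mice.

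Glucocorticoid-responsive genes also moved together in both genotypes. The authors' deposited tables called 19 of 21 members higher in runners and 0 lower in cKO, and 18 higher and 2 lower in controls; over all members 25.1% were called higher and 18.2% lower in cKO, and 27.0% higher and 19.4% lower in controls. Median responses were 0.55 in cKO and 0.77 in controls, and 3 of 21 differences (14.3%) were called in each direction, near the 15.1% and 17.1% of all members. Fkbp5, a chaperone of the glucocorticoid receptor, Per1 and Cdkn1a had positive responses in both genotypes and differences of -0.60, 0.14 and 0.04, none of them called. Sgk1, a kinase of ion transport, had 95.3 FPKM in cKO runners and 36.4 FPKM in cKO sedentary mice, against 63.0 FPKM in control runners and 41.4 FPKM in control sedentary mice. It was high in runners of both genotypes and its difference was 0.78 ± 0.09 (SE). Hif3a (-1.23) and Mertk (-0.59) were called lower along with Zbtb16. Zbtb16 is a member only because both running comparisons list it, so its running calls are largely fixed by membership. Of the 12 circadian clock members 4 were called higher and 0 lower, the largest being Per2 at 0.54 ± 0.19 (SE).

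Of 22 growth and neurotrophic factors 3 were called higher (13.6%) and 2 lower (9.09%), against 15.1% and 17.1% of all members. Bdnf, which supports granule neurons, had 4.07 FPKM in cKO runners and 2.33 FPKM in cKO sedentary mice, against 5.59 FPKM in control runners and 5.09 FPKM in control sedentary mice. The cKO sedentary group was lowest and the difference was 0.66 ± 0.24 (SE, adjusted p of 0.024). Fgf1 (0.94) and Dlk1 (0.74) were called higher, and the insulin-like factors Igf1 (-0.67) and Igf2 (-0.95) lower.

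Granule neuron genes moved further upward with running in cKO. Of 29 loci on the list 19 were called higher and 1 lower, with a median difference of 0.39, and 26 of the 29 were lowest in cKO sedentary mice. Gabra6, a GABA-A receptor subunit of mature granule neurons, had 126 FPKM in cKO runners and 74.4 FPKM in cKO sedentary mice, against 421 FPKM in control runners and 423 FPKM in control sedentary mice. Both cKO groups were far below both control groups, and cKO runners lay above cKO sedentary mice. Its difference was 0.77 ± 0.04 (SE), and a second, low locus of the same symbol had 1.14 ± 0.33. Neurod1, a granule lineage factor, had 71.2 FPKM in cKO runners and 37.8 FPKM in cKO sedentary mice, against 237 FPKM in control runners and 270 FPKM in control sedentary mice, a difference of 1.10 ± 0.08 (SE). Calb2, the calcium buffer calretinin, had the largest at 1.22 ± 0.09 (SE). The median running response of the list was 0.56 in cKO and 0.19 in controls, and 14 of the 19 called higher had a positive response in both. Nfix, a factor of granule maturation, was the 1 called lower (-0.72 ± 0.09, SE).

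Purkinje cell genes moved the other way. Of 26 loci 20 were called lower and 3 higher, with a median difference of -0.48, and 24 of the 26 were highest in cKO sedentary mice. Itpr1, the calcium release channel of Purkinje cells, had 641 FPKM in cKO runners and 960 FPKM in cKO sedentary mice, against 454 FPKM in control runners and 360 FPKM in control sedentary mice. Running went with a lower level in cKO and a higher one in controls, and the difference was -0.92 ± 0.02 (SE). Slc1a6, the Purkinje glutamate transporter, had a difference of -0.61. Calb1, the calcium buffer calbindin, had 518 FPKM in cKO runners and 746 FPKM in cKO sedentary mice, against 377 FPKM in control runners and 411 FPKM in control sedentary mice, and was called lower at -0.40 ± 0.03 (SE). The 3 called higher, Pcp2, Pcp4 and Gng13, had negative responses in both genotypes and differences of 0.17, 0.18 and 0.26. Once transcript length was allowed for, all 26 loci, these 3 included, lay below 0. FPKM is relative to the rest of a library, and the part that a changed mix of cells has in these values was not tested: summed over their lists, granule genes stood at 1509 FPKM in cKO runners and 991 FPKM in cKO sedentary mice, against 3514 FPKM in control runners and 3343 FPKM in control sedentary mice, and Purkinje genes at 4682 and 6373 FPKM in the cKO groups, against 3507 and 3815 FPKM in the control groups, in the same order.

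Genes of inhibitory interneurons were mixed, with 8 of 18 called lower (44.4%) and 4 higher (22.2%). The GABA-making enzymes Gad1 and Gad2, which Purkinje cells share, had differences of -0.53 and -0.64. Kit, a receptor of molecular layer interneurons, had 33.4 FPKM in cKO runners and 49.6 FPKM in cKO sedentary mice, against 68.4 FPKM in control runners and 66.2 FPKM in control sedentary mice, a difference of -0.62 ± 0.04 (SE). Of the 4 called higher, Sst, Npy and Tac1 are the peptide genes above.

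Genes of receptors and channels were called in both directions. Of 14 loci of ionotropic glutamate receptor subunits 9 were called lower and 1 higher, with a median of -0.49. The 1 called higher was Grin2c, the NMDA receptor subunit of granule neurons, at 0.33 ± 0.05 (SE). The AMPA receptor subunits Gria1 and Gria3 were called lower at -0.39 and -0.41, while Gria4 was not called (-0.08 ± 0.04, SE). Among 18 GABA-A and glycine receptor loci 9 were called higher (50%) and 3 lower (16.7%). Gabrd, the extrasynaptic subunit of granule neurons, was called higher at 0.53 and Gabra2 lower at -0.79.

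Of 37 voltage-gated channel genes 18 were called lower and 5 higher, with a median of -0.17. Their median length is 7760 bases, and once length was allowed for the median was -0.04, with 18 above and 19 below 0. Cacna1g, a T-type calcium channel, had 63.2 FPKM in cKO runners and 82.6 FPKM in cKO sedentary mice, against 38.2 FPKM in control runners and 27.6 FPKM in control sedentary mice, a difference of -0.86 ± 0.03 (SE). Kcnma1, the large conductance calcium-activated potassium channel, and Cacna2d2, a calcium channel subunit, had differences of -0.92 and -0.86. Genes of synaptic vesicles split evenly, 11 of 28 called higher (39.3%) and 10 lower (35.7%). Snap25, a membrane fusion protein, had 1183 FPKM in cKO runners and 988 FPKM in cKO sedentary mice, against 1377 FPKM in control runners and 1742 FPKM in control sedentary mice, a difference of 0.60 ± 0.01 (SE). Its partner Vamp2 had 252 FPKM in cKO runners and 259 FPKM in cKO sedentary mice, against 257 FPKM in control runners and 164 FPKM in control sedentary mice, a difference of -0.69 ± 0.04 (SE).

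Cytosolic ribosomal protein genes moved together. Of the 70 loci of this list that the authors report, 34 were members. All 34 were called higher, against 15.1% of all members, with differences from 0.23 to 0.72 and a median of 0.56. Some, such as Rps3a1, are members only because both running comparisons list them. For those, listed responses of opposite sign largely fix a called difference in advance, so the count is not independent of membership. Rpsa had 123 FPKM in cKO runners and 104 FPKM in cKO sedentary mice, against 105 FPKM in control runners and 137 FPKM in control sedentary mice, a difference of 0.62 ± 0.05 (SE). The authors' deposited tables called 24 of the 34 higher in runners in cKO and all 34 lower in runners in controls. Ribosomal protein genes have many near-identical pseudogene copies that the authors' counting could split, so single values are uncertain. Of 32 respiratory chain genes, from 69 reported loci, 18 were called higher (56.25%) and 1 lower, with a median of 0.28, as for Cox4i1 (0.46 ± 0.03, SE). The share called higher was 15.1% over all members and 27.3% over loci of 1000 to 2000 bases. Of 9 proteasome genes, from 25 reported loci, 7 were called higher (77.8%) and 0 lower. Cox4i1 and Psmb4 are also members only through the running comparisons. Heat shock chaperones gave 6 higher (60%) and 1 lower (10%) of 10, with Hspa8 at 0.37 ± 0.01 (SE).

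The members of these lists have short transcripts, with a median length of 1314 bases for ribosomal, 1536 bases for respiratory chain and 1515 bases for proteasome genes, and the difference varied with transcript length. Among the 6375 members with a length in GENCODE M21, the median difference was 0.33 for the 120 loci whose longest transcript is up to 1000 bases, 0.13 between 2000 and 3000 bases and -0.21 for the 1300 loci over 6000 bases. Over 6000 bases 42.6% were called lower and 5.54% higher, and between 1000 and 2000 bases 3.28% were called lower and 27.3% higher. The median running response ran from -0.31 to 0.19 over the length classes in controls and from 0.10 to -0.03 in cKO. After the median of loci of like length was subtracted, the median difference of ribosomal genes was 0.33, that of respiratory chain genes 0.03 and that of proteasome genes 0.15. It was 0.41 for granule genes, -0.48 for Purkinje genes, -2.08 for choroid plexus genes, 0.93 for hindbrain genes and 0.36 for peptide genes. The source of the length trend was not tested.

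**Figure D4:**
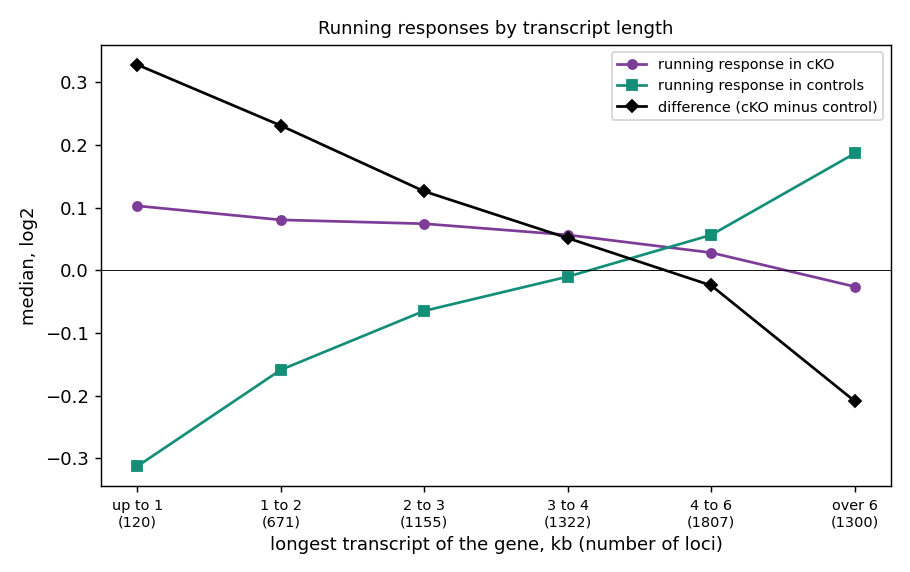
Median running response in cKO (circles), in controls (squares) and median difference (diamonds), in log2, for loci grouped by their longest transcript in kb, with the number of loci in brackets. The control response climbs with length from -0.31 to 0.19, the cKO response declines from 0.10 to -0.03, and the difference declines from 0.33 to -0.21.

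Genes of axon guidance, matrix and Notch signalling gave 0 calls higher, against 15.1% of all members and 5.54% of loci over 6000 bases. Of 44 axon guidance genes 10 were called lower (22.7%, against 17.1% of all members and 42.6% of loci over 6000 bases), with a median of -0.26 that became -0.10 after length was allowed for. Ntn1, the secreted guidance cue netrin-1, had 6.13 FPKM in cKO runners and 9.83 FPKM in cKO sedentary mice, against 12.8 FPKM in control runners and 9.89 FPKM in control sedentary mice, a difference of -1.06 ± 0.16 (SE). Of 28 extracellular matrix genes 7 were called lower (25%) and 0 higher, among them Tnr (-0.91), Lamb1 (-0.73) and Hspg2 (-1.13). Their median length is 5988 bases, and the median of -0.26 became -0.24 after length was allowed for. Of 12 Notch pathway genes 4 were called lower (33.3%) and 0 higher, namely Dner (-0.40), Notch1 (-0.66), Notch2 (-0.57) and Notch3 (-0.63). The median of the 12 was -0.14, or -0.15 after length was allowed for. Among chromatin remodelers 6 of 20 were called lower and 1 higher, with Chd3 at -0.71 and Rbbp4 at 0.33. Their median was -0.05 and became 0.10 once length was allowed for, with 11 of 20 above 0. Of 6 clustered protocadherin loci 0 were called in the z test and 0 had an unadjusted p below 0.05, and their differences lay between -0.36 and -0.04.

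Among glial genes, astrocyte and Bergmann glia genes gave 11 calls higher (42.3%) and 9 lower (34.6%) among 26. Glul, which recycles glutamate to glutamine, had 751 FPKM in cKO runners and 533 FPKM in cKO sedentary mice, against 402 FPKM in control runners and 431 FPKM in control sedentary mice, a difference of 0.59 ± 0.03 (SE), while the glutamate transporter Slc1a2 had -0.53 ± 0.03 (SE). Oligodendrocyte genes gave 5 higher and 5 lower of 26 (19.2% each), near the 15.1% and 17.1% of all members. Precursor genes gave 4 lower (30.8%) and 0 higher of 13, with Olig2 at -0.65 ± 0.20 (SE). Of 13 microglial genes 0 were called in the z test and 1 had an unadjusted p below 0.05, with differences from -0.23 to 0.58. Of 26 interferon and antigen presentation genes 2 were called higher (7.69%), B2m (0.63) and Stat2 (0.58), and the median was 0.37. All 26 had a positive running response in cKO, and 16 of them had a negative one in controls. The authors' deposited tables called 12 of 26 higher and 0 lower in runners in cKO, and 1 higher and 4 lower in runners in controls. Errors were wide for low genes such as Oas2 (1.26 ± 0.68, SE). Of 17 endothelial and mural genes 5 were called higher and 0 lower, among them the tight junction gene Cldn5, with 12.8 FPKM in cKO runners and 12.5 FPKM in cKO sedentary mice, against 9.16 FPKM in control runners and 17.8 FPKM in control sedentary mice (0.99 ± 0.19, SE).

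Of 20 imprinted genes, which are expressed from one parental copy, 8 were called higher (40%) and 1 lower (5%). The paternally expressed Ndn, Nap1l5 and Dlk1 were called higher at 0.57, 0.50 and 0.74, and Igf2 lower. Thyroid hormone targets gave 2 higher (12.5%) and 3 lower (18.75%) of 16, near the 15.1% and 17.1% of all members. Nrgn, the postsynaptic protein neurogranin, had 54.3 FPKM in cKO runners and 20.6 FPKM in cKO sedentary mice, against 31.4 FPKM in control runners and 38.3 FPKM in control sedentary mice, a difference of 1.69 ± 0.16 (SE). Tcf7l2, a Wnt pathway factor, had 23.99 FPKM in cKO runners and 8.01 FPKM in cKO sedentary mice, against 17.8 FPKM in control runners and 20.99 FPKM in control sedentary mice. Both were lowest in cKO sedentary mice, and the difference for Tcf7l2 was 1.82 ± 0.31 (SE).

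**Figure D5:**
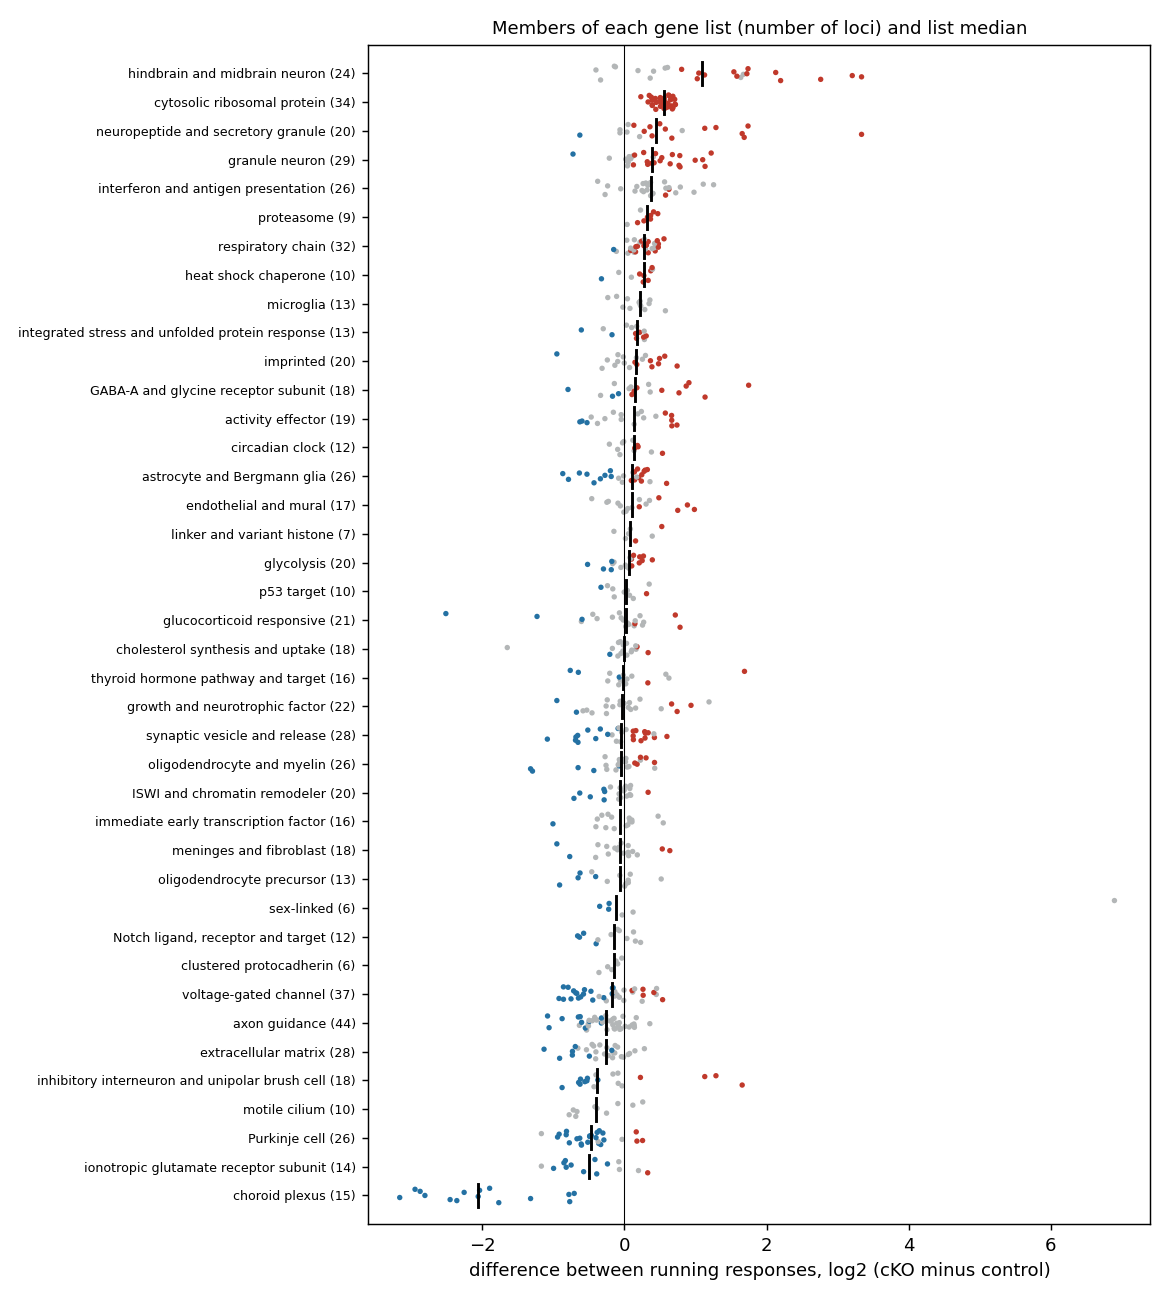
Difference between the running responses (log2, cKO minus control) of every member of the 40 lists with at least 6 loci, ordered by list median (black bar), with the number of loci in brackets. Red points were called higher, blue lower and grey not called; hindbrain, ribosomal, peptide and granule neuron lists lie at the top and choroid plexus, glutamate receptor and Purkinje cell lists at the bottom, and the lone grey point near 7 is Eif2s3y.

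The remaining lists are set against the 15.1% of all members called higher and the 17.1% called lower. Of 20 glycolysis genes 8 were called higher (40.0%) and 4 lower (20%), with a median of 0.07 that became -0.05 once length was allowed for. Of 13 stress response genes 5 were called higher (38.5%) and 2 lower (15.4%), with a median of 0.17. Cholesterol synthesis gave 2 higher and 1 lower of 18, p53 targets 1 higher and 1 lower of 10, variant histones 2 higher and 0 lower of 7 and meningeal genes 2 higher and 2 lower of 18. Of the 2 loci of the erythroid and neutrophil list, both neutrophil genes, 0 were called and 0 had an unadjusted p below 0.05, S100a9 (0.20 ± 1.21, SE) and Ngp (-0.47 ± 0.97, SE). Haemoglobin loci, which carry joint or older symbols that the list did not match, were called lower, with Beta-s at -1.69, the locus of Hbb-b1 and Hbb-b2 at -2.35 and that of Hba-a1 and Hba-a2 at -1.01. The 10 motile cilium genes lay lower, 8 of them below 0, with a median of -0.40, or -0.68 and all 10 below 0 once length was allowed for. In the z test 0 of them were called and 0 had an unadjusted p below 0.05.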

How the data were processed

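The libraries were made from polyadenylated RNA and read from both fragment ends, per the labels' protocols. Cuffdiff, Cufflinks 2.1.1, TopHat, TopHat2 2.0.8b and the build mm10 appear in the submitters' processing notes. Each of the 4 deposited tables compares a pair of groups and gives the authors' FPKM per group, a log2 fold change, a test statistic (used here as a score), a p-value and a q-value, per the file headers. No source here states the depth of a library, which leaves counting intervals out of reach. The 13151 FPKM values found in more than 1 deposited table were identical.

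Tables were joined by locus. The standard error of a deposited comparison was its log2 fold change over its statistic, and that of a difference combined both genotype tables, or both running tables where the genotype tables do not both list the locus. Where both pairs list it, 99.1% of 1531 errors agreed within 1%. Both pairs hold the same 4 groups, so this agreement is not an independent check of the error. P-values of the z test were adjusted by Benjamini-Hochberg. Deposited calls are q below 0.05. The 41 gene lists and the members were chosen with earlier results of these data known, and a locus counts once per list. Named are Smarca5, Vgf, the 15 largest called differences in each direction (1 symbol, no predicted genes or small RNAs), up to 4 list members with the smallest adjusted p, and sex-linked genes; other genes printed were chosen after their values were seen. Lengths and positions are from GENCODE M21 and promoters from RefSeq, matched by symbol or older symbol. The libraries of a group differ by a lane letter and whether they are separate pools is not stated, so p-values rest on the authors' error model. Python 3.11.15, numpy 2.4.6, scipy 1.17.1 and pandas 2.3.3 were used.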

Additional observations from a re-analysis of the deposited data

Results flagged for a closer look

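Each result here was brought out because the running response differed between cKO and control mice in the z test of the difference itself. The counts are 1055 loci called higher and 1189 called lower in cKO than in controls. Vgf is among them with a difference of 0.58. The genes listed below are the largest called differences in each direction among genes with 1 symbol, predicted genes and small RNAs left out. Groups hold 1 value each, so single libraries that stand apart could not be looked for.

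The largest positive differences (log2, cKO response minus control response) were in the peptide precursor Cartpt (3.34), the vesicular acetylcholine transporter Slc18a3 (3.21), the serotonin transporter Slc6a4 (2.76), tryptophan hydroxylase Tph2 (2.20), dopamine beta-hydroxylase Dbh (2.13) and the nicotinic receptor subunit Chrna6 (1.87). They were followed by Tcf7l2 (1.82), the zinc finger gene Zfp951 (1.81), Lamp5 (1.79), Adamtsl5 (1.75) and the GABA-A receptor subunit Gabre (1.75). Next came Calca, the precursor of calcitonin gene-related peptide (1.74), Slc5a7 (1.72), Nrgn (1.69) and Vip (1.69).

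The largest negative differences were in Kcne2 (-3.16), Tmem72 (-2.94), Aqp1 (-2.87), Ttr (-2.80), Zbtb16 (-2.51), the keratin Krt18 (-2.47), Prlr (-2.45), F5 (-2.36) and Kl (-2.25). They were followed by Cldn1 (-2.06), Slc4a5 (-2.04), Ccdc135 (-1.996), Cldn2 (-1.89), the cation channel Trpv4 (-1.86) and the collagen Col8a2 (-1.82). All 15 were lowest in control sedentary mice.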

How the results depend on the processing

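The 2244 called differences became 1385 of 2069 loci when the error came from the running tables, and 237 of 1180 when it came from the authors' deposited p-values; 233 of those 1180 are among the 2244. Both settings test fewer loci. Against a difference beyond 1.5-fold 82 loci were called, 22 higher and 60 lower, and Vgf (0.58) was not, with an adjusted p of 1. The 172 loci of 2-fold or more became 77 with at least 1 FPKM in all 4 groups, 77 with at least 5 FPKM in one and 54 with 1 FPKM added to each value. The count of called loci stayed within 1.5 times under no filter, both stricter filters, median centring, length centring and an adjusted p below 0.01, where it lay between 1703 and 2255. Among the 179 named genes, centring on loci of like transcript length turned the sign of Xist (0.10), S100a9 (-0.087), Psma6 (-0.0067) and Psmc5 (-0.096). Aldoa (-0.0043), Vldlr (0.056) and H3f3b (-0.038) turned as well. It also turned the medians of the astrocyte (-0.059), microglia (-0.051), glucocorticoid (-0.15), glycolysis (-0.053) and synaptic vesicle (0.082) lists. So it did for the remodeler (0.10), histone (-0.013), p53 target (-0.12) and sex-linked (0.041) lists. Centring on the median of all loci turned the glucocorticoid (-0.0078) and p53 target (-0.0064) medians. Of the 179 named genes, centring on length left 154 in direction and call, and 18 lost their call. Centring on the median left 177 in direction and call. Low levels limit precision, as errors grew below 5 FPKM. No paired analysis was possible because the tables hold 1 value per group and none per library, and for the same reason no library could be left out.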

Other observations

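Genes of red blood cells, chosen after their values were seen, stood high in cKO sedentary mice. The beta-globin locus Beta-s had 47.1 FPKM in cKO runners and 151 FPKM in cKO sedentary mice, against 61.6 FPKM in control runners and 61.3 FPKM in control sedentary mice, a difference of -1.69 ± 0.14 (SE). The locus of Hbb-b1 and Hbb-b2 had 10.04 FPKM in cKO runners and 36.2 FPKM in cKO sedentary mice, against 10.6 FPKM in control runners and 7.50 FPKM in control sedentary mice, a difference of -2.35 ± 0.34 (SE). These globin copies are near-identical, so their split is uncertain. Alas2, the first enzyme of haem synthesis in red cells, had 1.43 FPKM in cKO runners and 4.57 FPKM in cKO sedentary mice, against 1.27 FPKM in control sedentary mice, and has no value for control runners in the tables used here. Blood left in the tissue was not tested.

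Loci without a value in every group hold further genes of the same kinds. Of 7 choroid plexus loci outside the join, 6 were higher and 0 lower in runners in the authors' deposited table for controls. Folr1, a folate receptor of that epithelium, had 6.97 FPKM in cKO sedentary mice, against 4.91 FPKM in control runners and 0.754 FPKM in control sedentary mice. Rln3, a relaxin peptide of brainstem neurons, had 11.2 FPKM in cKO runners and 4.38 FPKM in cKO sedentary mice and is listed at 0 in both control groups. Shox2, a homeobox factor, had 5.47 FPKM in cKO runners and 2.43 FPKM in cKO sedentary mice, against 5.20 FPKM in control sedentary mice. Egr3, an immediate early gene, had 2.40 FPKM in cKO runners and 0.736 FPKM in cKO sedentary mice, against 1.30 FPKM in control runners.

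The neutrophil gene S100a9 had 1.01 FPKM in cKO runners and 4.78 FPKM in cKO sedentary mice, against 0.588 FPKM in control runners and 3.20 FPKM in control sedentary mice, and so was lower in runners of both genotypes.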
